A study of Sus scrofa with 36 samples.

Results

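Apolipoproteins are the protein part of the particles that carry lipids in blood, and the liver makes most of them. The genes described here were APOA1, APOA2, APOA4, APOA5, APOB, APOC3, APOE, APOH and APOM together with MTTP, which encodes the microsomal triglyceride transfer protein. They were measured in liver RNA of 36 castrated male growing pigs on 1-colour Agilent pig arrays with 60-base probes. Members were chosen by name: a probe counted if its gene name, transcript accession or description was that of 1 of these 10 genes, and if it was well above background on at least 6 of the 36 arrays. Of 30 such probes among 60305 on the array, 28 passed this filter, out of 44796 kept probes in all, so that the 10 genes stood among 11207 gene symbols with a kept probe. The filter did not select on any difference, since all 28 were well above background on all 36 arrays. The remaining probes, 1 of APOB and 1 of APOE, were both named from a description only and were well above background on 0 and 1 arrays.

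The pigs were Large White (LW), a breed selected for lean growth, Creole (CR), a local Caribbean breed, or their cross (F1). Each gave 12 pigs, of which 6 were killed under thermoneutral conditions (TN, 24 °C) and 6 after heat stress (HS). The labels of the HS pigs give 30 °C and the growth protocol gives 32 °C for 5 days, and ages are not in the labels. All pigs were raised together in a climatic room with free access to the same feed, and all TN pigs were killed before the heat began, so heat cannot be told apart from a later slaughter day and a few days of added age. The study also reports that pigs ate less under heat, so heat cannot be told apart from lower feed intake either. Per the study's methods, pigs of 1 breed shared pens and came in blocks of littermates. Pens and litters are not in the labels, so p-values here treat each pig as independent. Pigs of 1 pen or litter may be alike, so these p-values may be too small, between breeds and between temperatures.

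In the liver cell, APOB is the single large protein on which a very low density lipoprotein is built, and MTTP loads lipid onto it as it is made. APOA1 and APOA2 are the main proteins of high density lipoprotein, and APOM rides on the same particles. APOC3 slows and APOA5 speeds the clearance of triglyceride-rich particles, APOE is the ligand by which remnants are taken up, and APOH (beta-2-glycoprotein I) binds phospholipid surfaces. APOA4 is best known as an apolipoprotein of the intestine. By RefSeq coordinates on pig build Sscrofa11.1, APOA5, APOA4, APOC3 and APOA1 are neighbours on chromosome 9, within chr9:44177834-44218360. The other members lie apart, APOB at chr3:117250096-117316200, APOA2 at chr4:89237514-89239126, APOE at chr6:51373113-51375333, APOM at chr7:23768974-23773324, MTTP at chr8:120820660-120871468 and APOH at chr12:12827195-12839172.

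The probe sequences matter for reading the results, because several genes had more than 1 probe and some probes shared bases. The 28 kept probes held 24 distinct sequences. APOA4 had 4 probes of which 3 had the same 60 bases, so that they were repeat spots of 1 measurement, and the remaining probe had a sequence of its own. APOA1 had 5 probes. The brightest shared no more than 6 bases in a row with the others, 2 had the same sequence, and the other two overlapped that sequence by 25 bases, which are in capitals in the 3 sequences here, 5′ to 3′.
A_72_P754826: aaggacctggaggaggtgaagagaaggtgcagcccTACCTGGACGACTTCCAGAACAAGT
O11903: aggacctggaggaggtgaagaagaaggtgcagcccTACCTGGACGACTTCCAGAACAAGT
A_72_P035886: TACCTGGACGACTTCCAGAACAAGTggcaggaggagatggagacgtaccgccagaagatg
The 4 APOA1 probes of this stretch are therefore not 4 independent measurements. The fourth probe of APOA4 is shown because it was the only one that could check the 3 repeat spots. In the probes of APOC3 and APOB that follow, the capitals mark the letters of a stop codon with which each ends. No transcript sequence was used, so probes are not placed in exons.
APOA4 A_72_P441539: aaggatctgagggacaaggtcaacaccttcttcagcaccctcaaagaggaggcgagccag
APOC3 A_72_P177696: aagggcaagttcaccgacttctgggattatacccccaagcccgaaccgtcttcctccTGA
APOB A_72_P443119: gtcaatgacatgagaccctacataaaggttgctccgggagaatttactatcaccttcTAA
The letters AATAAA, those of the usual polyadenylation signal, stood in 6 of the 24 distinct member sequences (25.0%), against 11.3% of the 42997 distinct sequences of all kept probes. These 6 are not independent, since 2 are of APOA2 probes that share 51 bases and 2 are of APOE probes. On the opposite strand, TTTATT stood in 2 of the 24 member sequences (8.33%), against 4.31% of all.

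Levels are given as log2 of the quantile-normalised median spot intensity, and differences on the same log2 scale. The brightest kept probe of a gene stands for it unless another is named, and differences are between pigs at the same probe. Arrays had a median probe signal of 70.0 to 92.0 intensity units against a background of 18.0 to 25.0, and no spot was saturated. After quantile normalisation, which gives arrays the same value at the same rank, the brightest probes of APOA1, APOC3 and APOE took only 17, 17 and 18 distinct values over 36 arrays. Between pigs of 1 group they had an SD of 0.0981 for APOA1, 0.0706 for APOC3 and 0.0641 for APOE, against a median of 0.19 over all kept probes.

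The labelled tissue was checked against markers. Of 10 hepatocyte genes 6 had a kept probe, among them ALB and TTR, each well above background on all 36 arrays, and the mean of the list lay between 16.4 and 16.8 in every pig. Of 5 enterocyte genes, 2 had a kept probe, LCT, well above background on 36 arrays, and ALPI, on 20. Both were dim, with mean levels of 6.23 and 5.42. On the first principal component of all kept probes, 5 pigs lay apart from their labelled breed: LW TN replicates 1 and 6 at -4.83 and -3.04, where the other LW pigs lay between -44.2 and -24.8, and F1 TN replicate 3 and F1 HS replicates 1 and 2 at -18.1, -17.0 and -21.3, where the other F1 pigs lay between -1.31 and 36.9. For each member gene with a probe that passed between breeds, at least 1 probe is given with and without them. The remaining members, the pathway genes and the marker lists are given between breeds with all 36 pigs only. F1 HS replicates 3 and 4, at 33.5 and 36.9 near the top of the CR range of 2.35 to 35.4, were not set apart. The component comes from the same data, so leaving the 5 out can by itself widen differences from LW. Larger differences without them are therefore not independent evidence.

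Few probes passed between HS and TN pigs, in this gene set as on the whole array. In HS minus TN, fitted with limma over all 36 pigs with breed in the model, 1 of 28 member probes passed an adjusted p of 0.05 (3.57%), where 385 of all 44796 probes did (0.859%). That probe belonged to MTTP, which was lower in HS pigs. Differences were 14 above and 14 below 0, and their median was -0.000621 against 0.00114 for all kept probes. The median size of a difference was 0.102 in members and 0.0555 in all kept probes. By the same limma test, 12 of the 28 member probes had an unadjusted p under 0.05, where 5859 of all 44796 did. These 12 are not independent, since they include all 4 APOA4 probes, of which 3 are repeat spots.

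MTTP fell by 0.20 on the log2 scale (SE 0.05, 95% interval -0.30 to -0.10, adjusted p = 0.0413), a level 1.15-fold lower in HS. In LW, the 6 TN pigs lay between 14.54 and 14.85 with a median of 14.68, and the 6 HS pigs between 14.39 and 14.66 with a median of 14.40. In CR, TN pigs lay between 14.53 and 14.77 (median 14.60) and HS pigs between 14.11 and 14.69 (median 14.40). In F1, TN pigs lay between 14.34 and 14.94 (median 14.62) and HS pigs between 14.33 and 14.62 (median 14.49). The groups overlapped in every breed, and 16 of the 18 HS pigs were below the TN mean of their breed. The second MTTP probe, with another sequence, differed by -0.16 (SE 0.05) with an adjusted p of 0.118, and 14 of 18 HS pigs lay below the TN mean of their breed. The difference, here not adjusted for breed, was negative on each of the 5 slides, from -0.46 to -0.03. The value of -0.46 is from slide 1, whose 2 TN pigs were LW and whose 2 HS pigs were CR and F1. The call was narrow: without any one of 20 of the 36 pigs the adjusted p passed 0.05, reaching at most 0.0693, and without slide 4 the difference was -0.15 with an adjusted p of 0.344. It was also lost with the authors' log2 table (adjusted p = 0.0607), without a filter on dim probes (adjusted p = 0.05), without a breed term (adjusted p = 0.0505) and without the 5 pigs set apart (adjusted p = 0.0964).

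APOB, the partner of MTTP in particle assembly, had differences between -0.19 and -0.06 at its 4 probes, none of which passed. At the brightest, TN pigs lay between 15.97 and 16.44 and HS pigs between 16.04 and 16.41, a difference of -0.06 with a 95% interval of -0.14 to 0.02. This was the smallest of the 4. The largest, at A_72_P244787, had an interval of -0.39 to 0.01 (adjusted p = 0.432). At O1295 the difference was -0.12 (95% interval -0.23 to -0.01, adjusted p = 0.292).

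**Figure D1:**
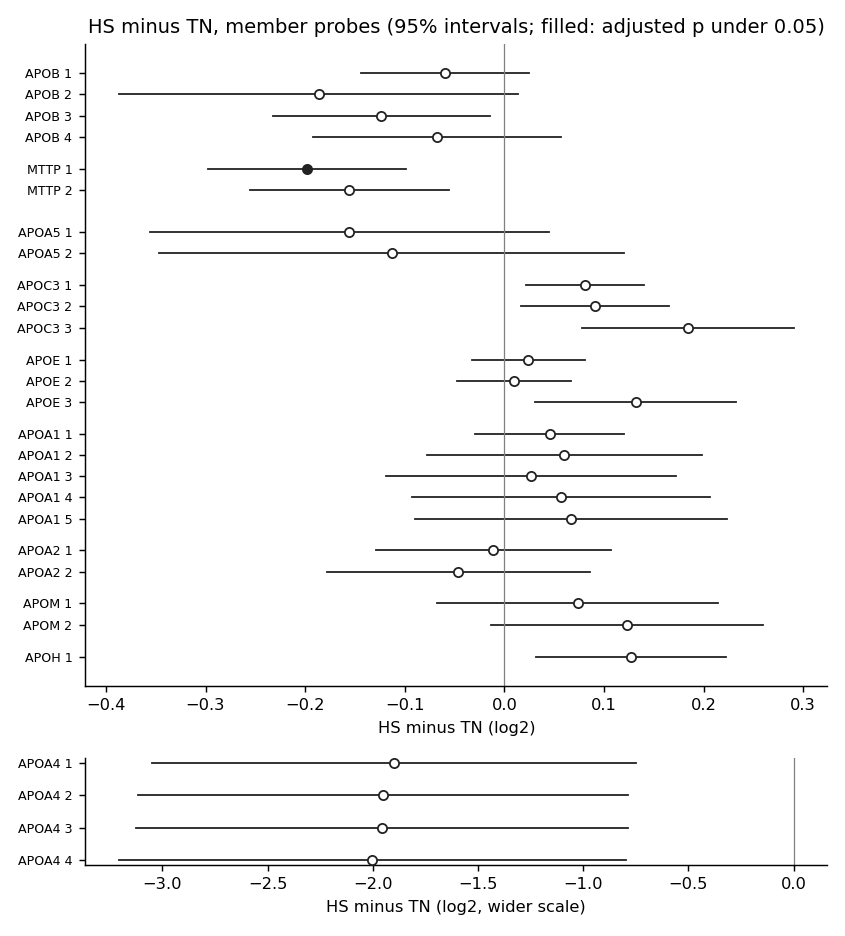
HS minus TN at each of the 28 member probes on the log2 scale, with 95% intervals; probes of a gene are numbered from the brightest, filled circles passed an adjusted p of 0.05, and APOA4 has its own wider axis. The first MTTP probe is the filled one, at -0.20, and the 4 APOA4 probes lie far to the left with intervals between -3.21 and -0.75.

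APOA4 had the largest difference of the 10 genes and did not pass the test. The difference was -1.90 on the log2 scale (SE 0.57, 95% interval -3.05 to -0.75, adjusted p = 0.0954), which is 3.73-fold on average, and 14 of 18 HS pigs were below the TN mean of their breed. In TN pigs the lowest level was 11.77, the median 15.64 and the highest 17.10 in LW, 11.21, 14.50 and 17.96 in CR, and 12.46, 15.65 and 17.76 in F1. In HS pigs these were 11.62, 14.34 and 16.52 in LW, 11.38, 11.92 and 14.37 in CR, and 11.15, 12.56 and 13.90 in F1. High and low pigs were thus found in all 3 TN groups and in LW HS, whereas no CR or F1 pig under heat was above 14.37. Above a level of 15 were 10 of 18 TN pigs and 3 of 18 HS pigs, all 3 of them LW.

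The order of the 6 group means was F1 TN (15.47), LW TN (14.99), CR TN (14.32), LW HS (14.21), F1 HS (12.56) and CR HS (12.31). No 2 neighbours in this order differed by more than the larger of their SDs, which ranged from 0.982 in F1 HS to 2.30 in CR TN. Within breeds, HS minus TN was -0.78 for LW, -2.01 for CR and -2.92 for F1 pigs, each with an SE of 0.98. None passed adjustment over all probes (adjusted p = 0.983, 0.671 and 0.326). The breeds were not shown to differ in it, by limma's interaction test (adjusted p = 0.995).

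All 4 APOA4 probes gave nearly the same result. Their differences ran from -2.0 to -1.90, with adjusted p between 0.0901 and 0.0954. The probe with its own sequence, which shares no more than 5 bases in a row with the repeat spots, followed the brightest of them over the 36 pigs with a correlation of 0.996. The difference between 2 repeat spots had an SD of 0.0617 to 0.102 over the pigs, against a spread between pigs of 1 group of 1.80. Only 23 of the 44796 kept probes (0.0513%) had a larger spread within groups than the brightest APOA4 probe, and its highest and lowest pig differed 113-fold.

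The levels were also uneven between slides, each of which held TN and HS pigs in equal number. HS minus TN was -3.70 on slide 1, -0.06 on slide 2, -0.40 on slide 3, -4.86 on slide 4 and -1.38 on slide 5. Breed was not adjusted for in these values, and slide 1 held 2 LW TN, 1 CR HS and 1 F1 HS pig. Breed and temperature therefore cannot be told apart on slide 1. The 4 TN pigs of slide 4 (1 LW, 1 CR and 2 F1) had the 4 highest levels of all 36, at 17.10, 17.96, 17.76 and 16.97. On the same slide the 4 HS pigs lay between 11.38 and 15.40. One of these F1 pigs, TN replicate 3, is also among the 5 set apart on the first component, and without those 5 the difference was -1.68 (adjusted p = 0.169). Without slide 4 it was -0.99 (adjusted p = 0.59), and without LW TN replicate 3 it was -2.14 and passed (adjusted p = 0.0448). With slide as a fixed or random block the difference stayed at -1.90 (adjusted p = 0.082 and 0.0809). Slaughter day and pen per pig are not in the labels.

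**Figure D2:**
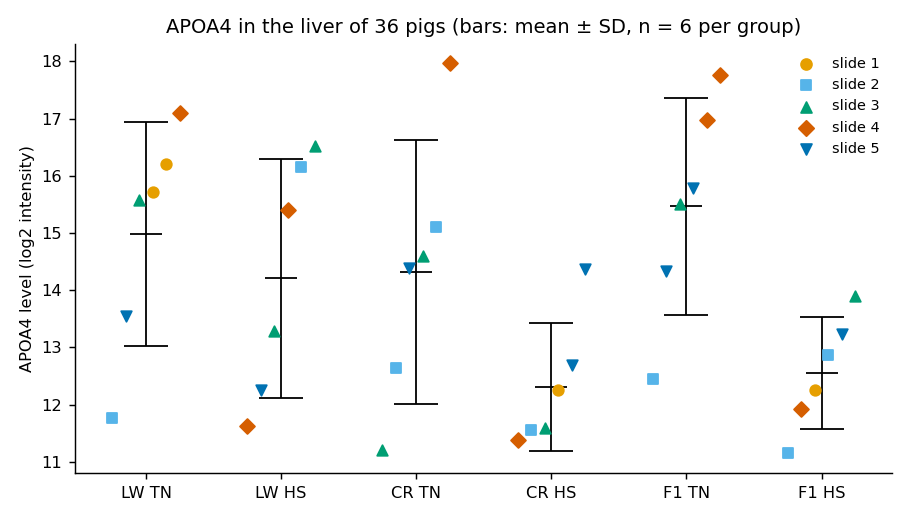
APOA4 level (log2 intensity) of each pig in the 6 groups, with the group mean and SD (n = 6) as bars and the slide as colour and shape. The 4 TN pigs of slide 4 (diamonds) are the highest of all at 16.97 to 17.96, and the CR HS and F1 HS pigs lie at or below 14.37.

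APOA5, the neighbour of APOA4 on chromosome 9, differed far less. TN pigs lay between 14.49 and 15.96 and HS pigs between 14.56 and 15.81, a difference of -0.16 (95% interval -0.36 to 0.04, adjusted p = 0.543), and its second probe gave -0.11. Under heat 15 of 18 pigs had less APOA5 than the average TN pig of their breed at the brightest probe, and 11 of 18 at the second. At the brightest APOC3 probe all 18 HS pigs lay above the TN mean of their breed, but at the repeat spot with the same sequence 14 did, and at the third probe 16. The difference at the brightest probe, 0.08 (95% interval 0.02 to 0.14), did not pass (adjusted p = 0.175). Its 3 probes, of which 2 have the same sequence, differed by 0.08, 0.09 and 0.18, the largest at the dimmest of them, with an adjusted p of 0.0767. That probe lay between 17.28 and 17.82 in TN pigs and between 17.50 and 18.02 in HS pigs. On each of the 5 slides the APOC3 difference, not adjusted for breed, was above 0, from 0.04 to 0.12.

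The genes of high density lipoprotein did not pass in HS minus TN. APOA1 differed by 0.03 to 0.07 at its 5 probes, APOA2 by -0.05 and -0.01, and APOM by 0.07 and 0.12. The 95% interval was -0.03 to 0.12 for the brightest APOA1 probe and -0.13 to 0.11 for APOA2. APOE differed by 0.01 and 0.02 at its 2 brightest probes and by 0.13 at the dimmest kept probe (95% interval 0.03 to 0.23, adjusted p = 0.201). At that APOE probe 16 of 18 HS pigs lay above the TN mean of their breed. APOH differed by 0.13 (95% interval 0.03 to 0.22, adjusted p = 0.191).

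No member probe passed for a difference of the heat response between breeds, nor did any probe on the array (0 of 44796, with 1676 at an unadjusted p under 0.05). Within single breeds no member probe passed either, where 0 of 44796 kept probes did in LW, 0 in CR and 4 in F1 (0.00893%).

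Levels of members were correlated in few pairs. Correlations were taken over the 36 pigs after removal of group means, with a permutation test within groups and adjustment over all 45 pairs. Of these, 2 passed. APOA4 was correlated with APOA5 (Pearson r = 0.632, permutation p = 0.0001, adjusted p = 0.0045; Spearman rho = 0.523, permutation p = 0.00206, adjusted p = 0.0464). Without the 2 pigs farthest from the median of APOA4, r was 0.586, and within the 4 slides of 8 arrays it ranged from 0.343 to 0.834. The 4 TN pigs of slide 4 were ranked 1, 3, 4 and 8 for APOA5 among the 36, and without that slide r was 0.452 and no longer passed (permutation test, adjusted p = 0.134). With slide means removed r was 0.618 and passed (permutation test, adjusted p = 0.0139).

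**Figure D3:**
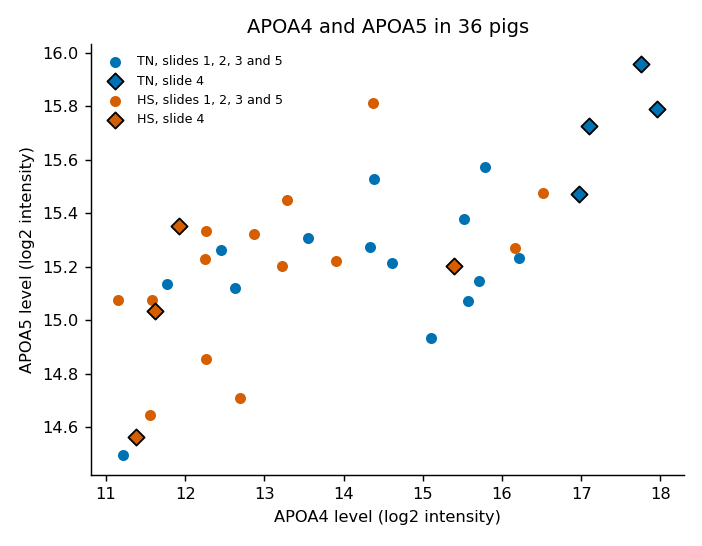
APOA5 level against APOA4 level (both log2 intensity) in 36 pigs, TN in blue and HS in orange, with slide 4 as outlined diamonds. The 4 TN pigs of slide 4 lie at the upper right, above 16.9 for APOA4 and above 15.4 for APOA5.

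The second pair was APOA1 with APOE (r = 0.583, permutation p = 0.00025, adjusted p = 0.00562; rho = 0.607, permutation p = 0.00027, adjusted p = 0.0121). Without the 2 farthest pigs r was 0.559, but within slides it ranged from -0.02 to 0.78, and with slide means removed it was 0.437 (permutation test, adjusted p = 0.0879). It also rested on the choice of probe. The 2 brightest APOE probes share 59 bases, yet their values were not correlated with each other over the pigs (r = -0.05), and against the other of them APOA1 gave r = 0.0473. MTTP and APOB gave r = 0.5 (permutation p = 0.00407, adjusted p = 0.0611; rho = 0.437, permutation p = 0.0148, adjusted p = 0.111), with 0.43 to 0.746 within slides. Without the 2 farthest pigs it was 0.684 and passed (permutation test, adjusted p = 0.00405).

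The other pairs within the chromosome 9 cluster were weak. Over the 36 pigs r was 0.14 for APOA1 with APOA4 (rho = 0.224), 0.00531 for APOA1 with APOA5 (rho = 0.0214), -0.17 for APOA1 with APOC3 (rho = -0.105), 0.0892 for APOA4 with APOC3 (rho = 0.0649) and 0.258 for APOA5 with APOC3 (rho = 0.211). Their permutation p-values ran from 0.2 to 0.982 for r and from 0.221 to 0.91 for rho, and none passed after adjustment.

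Among 11197 other genes, those whose levels most resembled APOA4 over the 36 pigs were MFSD2A, a lysophospholipid transporter (r = 0.832, rho = 0.819), ZNF259 (r = 0.798, rho = 0.789) and SMC1A, a cohesin subunit (r = 0.788, rho = 0.782). These were picked as the highest and carry no test. The points share arrays, slides and the heat contrast, and after removal of group means r was 0.795, 0.693 and 0.739. The HS minus TN difference of MFSD2A was -2.16 (adjusted p = 0.0366). Of the genes that flank the cluster within 100000 bases, BUD13 had r = 0.457 with APOA4 and SIK3 r = 0.265. ZPR1, at chr9:44167422-44178137, overlaps APOA5 by its coordinates and had no probe matched under that symbol. Its earlier symbol is ZNF259, so the ZNF259 named above is also a neighbour of the cluster.

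Differences between breeds were more common, and so they were on the whole array. In CR minus LW, 8 of 28 member probes passed (28.6%), 7 lower and 1 higher in CR, where 26.5% of all kept probes passed. In F1 minus LW, 11 passed (39.3%), 8 lower and 3 higher in F1, where 18.4% of all did. CR pigs differed from F1 pigs at 2 member probes (7.14%, against 1.5% of all), and F1 pigs from the mean of both parental breeds at the same 2 (7.14%, against 1.12%). CR and F1 are both set against the same LW pigs, so these counts are not independent. Nor are probes of 1 gene: 4 of the 11 were APOA1 probes that share bases. The 2 in both other comparisons were APOA2 probes that share 51 bases. By the brightest probe, 2 of the 10 genes passed in CR minus LW, where 26% of all brightest probes did. In F1 minus LW 2 passed, where 17.4% of all brightest probes did. The median difference of member probes was -0.09 in CR minus LW and -0.07 in F1 minus LW, where that of all kept probes was 0.00343 and 0.000125. APOA1, APOM and APOH were lower in CR and in F1 than in LW, APOA2 was lower in F1 than in both parental breeds, and some APOB probes were higher in CR or F1.

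APOA1 was lower than in LW at all 5 probes in CR and at 4 of 5 in F1. At A_72_P035886 LW pigs lay between 17.40 and 17.92 with a median of 17.71, CR pigs between 16.96 and 17.70 with a median of 17.26, and F1 pigs between 17.09 and 17.77 with a median of 17.37. The breeds overlapped, and 11 of 12 CR and 11 of 12 F1 pigs were below the LW mean. The difference was -0.39 in CR (SE 0.08, adjusted p = 0.000861) and -0.33 in F1 (SE 0.08, adjusted p = 0.00718). Over the 4 probes of the shared stretch it ran from -0.40 to -0.36 in CR and from -0.36 to -0.29 in F1, and all 8 tests passed. Those in F1 were less stable: at O11903 and A_72_P754826 they were lost without slide 1, 3 or 4 (adjusted p up to 0.265 and 0.222) and with the processed signal (adjusted p = 0.0654 and 0.0541), and at O11903 without the 5 pigs set apart on the first component (adjusted p = 0.0524). The brightest APOA1 probe gave smaller values, -0.12 in CR (adjusted p = 0.0457) and -0.10 in F1 (adjusted p = 0.13). Its call in CR was lost without any one of 16 of the 36 pigs, without any one slide, with the processed signal (adjusted p = 0.214), with the authors' table (adjusted p = 0.162), without a filter on dim probes (adjusted p = 0.0538) and with slide as a fixed block (adjusted p = 0.0745). Without the 5 pigs set apart on the first component, A_72_P035886 gave -0.38 in CR (adjusted p = 0.00136) and -0.30 in F1 (adjusted p = 0.0176). Without slide 4 its difference in F1 was -0.24 (adjusted p = 0.0966), and none of the 4 probes of the shared stretch passed in F1.

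APOA2 set F1 apart from both parental breeds. At its brightest probe F1 pigs lay between 16.92 and 17.51 with a median of 17.30, LW pigs between 17.29 and 17.87 with a median of 17.52, and CR pigs between 17.36 and 17.90 with a median of 17.61. All 12 F1 pigs were below the mean of LW and below that of CR, although the ranges overlapped. The difference was -0.28 from LW (SE 0.07, adjusted p = 0.00689), -0.33 from CR (SE 0.07, adjusted p = 0.00998) and -0.31 from the mean of the parental breeds (SE 0.06, adjusted p = 0.008). The second APOA2 probe, which shares 51 bases with it, gave -0.32, -0.35 and -0.34, and passed in all 3. CR and LW differed by 0.05 (95% interval -0.09 to 0.20). In the order of group means the gap between LW HS and F1 HS, 0.244, was the only one above the larger SD of the neighbours, and both F1 groups stood below it. On the 5 slides the difference lay between -0.368 and -0.086 from LW and between -0.418 and -0.134 from CR. All 3 passed without the 5 pigs set apart (adjusted p = 0.0205, 0.0201 and 0.00578). Without slide 3 they were -0.25, -0.30 and -0.28, and none passed (adjusted p = 0.0745, 0.109 and 0.121). Without slide 2 those from CR and from the parental mean also missed the threshold (adjusted p = 0.0939 and 0.0509). With the processed signal the difference from CR was lost at both probes (adjusted p = 0.0892 and 0.0863) and that from the parental mean at the brightest (adjusted p = 0.0594), and with the authors' table the difference from CR was lost at the second probe (adjusted p = 0.0532).

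APOM, the sphingosine-1-phosphate carrier of high density lipoprotein, was lower in CR and F1 at its dimmer probe. There LW pigs lay between 11.88 and 12.75 (median 12.48), CR pigs between 11.61 and 12.35 (median 12.01) and F1 pigs between 11.81 and 12.47 (median 12.09). All 12 CR pigs and 11 of 12 F1 pigs were below the LW mean. The difference was -0.47 in CR (SE 0.08, adjusted p = 8.84e-05) and -0.36 in F1 (SE 0.08, adjusted p = 0.00326), and -0.53 and -0.43 without the 5 pigs set apart. The brighter APOM probe gave -0.17 in CR and -0.17 in F1 and did not pass (adjusted p = 0.13 and 0.162). It shares no more than 5 bases in a row with the dimmer one, and over the pigs the probes were correlated with r = 0.747.

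APOH was lower in CR and in F1 than in LW at its single probe, with differences of -0.22 (SE 0.06, adjusted p = 0.00427) and -0.19 (SE 0.06, adjusted p = 0.0189). LW pigs lay between 17.21 and 17.75 (median 17.56), CR pigs between 17.07 and 17.51 (median 17.33) and F1 pigs between 17.11 and 17.66 (median 17.32). All 12 CR and 11 of 12 F1 pigs were below the LW mean, with overlap of the ranges. LW HS was the highest of the 6 groups at 17.64, above LW TN at 17.43 by more than the larger SD. Without slide 4 the differences were -0.17 (adjusted p = 0.0702) and -0.13 (adjusted p = 0.192), without slide 3 that of F1 had an adjusted p of 0.105, and without the 5 pigs set apart both were -0.26. The F1 call was also lost with the processed signal (adjusted p = 0.0999) and with the authors' table (adjusted p = 0.104).

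APOB was higher in F1 than in LW at 3 of its 4 probes. At A_72_P244787 LW pigs lay between 11.71 and 13.22 (median 12.28), CR pigs between 12.50 and 13.18 (median 12.81) and F1 pigs between 12.26 and 13.29 (median 13.02). The difference was 0.62 in F1 (SE 0.12, adjusted p = 0.00107) and 0.48 in CR (SE 0.12, adjusted p = 0.00345). This probe was named from its description alone, as pig apolipoprotein B exons 26 to 29. After removal of group means it was correlated with the other 3 APOB probes at r = 0.508 to 0.66. Those 3 gave 0.638 to 0.833 among themselves. The 2 highest LW pigs at this probe were TN replicates 1 and 6, at 13.22 and 12.73, and the 2 lowest F1 pigs were HS replicates 2 and 1, at 12.26 and 12.40. These are 4 of the 5 pigs set apart on the first component, and without the 5 the differences were 0.86 and 0.61. Setting them apart used the same data and can by itself widen these differences. The probes O1295 and A_72_P236797 gave 0.26 and 0.22 in F1 (adjusted p = 0.00583 and 0.0408), and 0.12 and 0.11 in CR, which did not pass. Without the 5 pigs they gave 0.37 and 0.34 in F1. The brightest APOB probe gave 0.12 in F1 (adjusted p = 0.0999) and 0.08 in CR. Without slide 3 or slide 4, A_72_P244787 no longer passed in CR (adjusted p = 0.0555 and 0.0728), nor O1295 in F1 (adjusted p = 0.0586 and 0.0556). The call of A_72_P236797 was lost without any one of slides 2 to 5 (adjusted p up to 0.177), without any one of 14 pigs, with the authors' table (adjusted p = 0.139) and without a filter on dim probes (adjusted p = 0.0515).

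**Figure D4:**
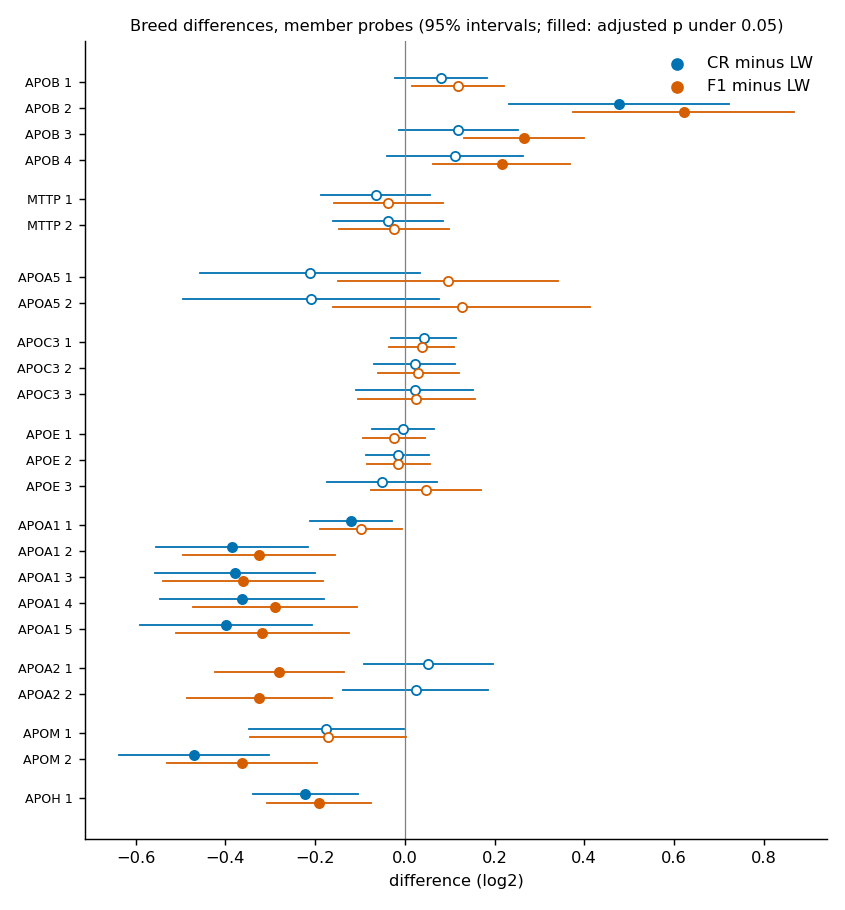
CR minus LW (blue) and F1 minus LW (orange) at the member probes other than APOA4 on the log2 scale, with 95% intervals; probes of a gene are numbered from the brightest and filled circles passed an adjusted p of 0.05. APOA1, APOM and APOH lie to the left in both, APOA2 in F1 alone at -0.28 and -0.32, and the second APOB probe to the right at 0.48 and 0.62.

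The remaining members did not pass between breeds. APOA4 differed by -1.28 in CR minus LW with a 95% interval of -2.69 to 0.12, and by -0.58 in F1 minus LW with an interval of -1.99 to 0.82. APOA5 differed by 0.31 in F1 minus CR (95% interval 0.06 to 0.55, adjusted p = 0.238), with all 12 F1 pigs above the CR mean. APOC3 differed by at most 0.04 between LW and the other groups, with an interval of -0.03 to 0.11 for CR minus LW at the brightest probe. APOE differed by -0.05 to 0.05 between LW and the other groups and by -0.02 to 0.10 in F1 minus CR, and at the brightest probe the interval was -0.07 to 0.06 for CR minus LW and -0.09 to 0.04 for F1 minus LW. MTTP differed by -0.07 in CR and -0.04 in F1 from LW, with intervals of -0.19 to 0.06 and -0.16 to 0.08.

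**Figure D5:**
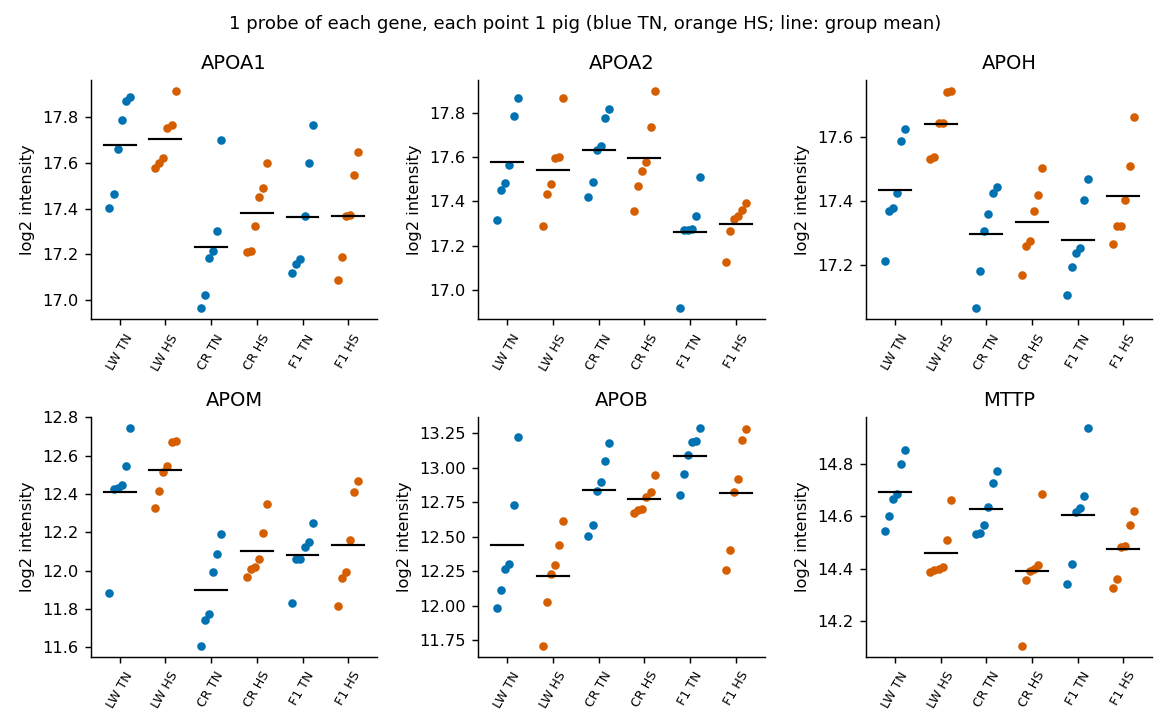
Level (log2 intensity) of each pig at 1 probe of 6 genes, by group, TN in blue and HS in orange, with the group mean as a line; APOA1 is A_72_P035886, APOM and APOB are A_72_P499018 and A_72_P244787. These APOA1, APOM and APOB probes are not the brightest of their genes, which gave smaller differences from LW. The brightest APOM and APOB probes did not pass in CR or F1 minus LW, nor did the brightest APOA1 probe in F1. At the probes shown, LW stands above CR and F1 for APOA1, APOM and APOH, F1 stands below for APOA2 (16.92 to 17.51), and HS stands below TN for MTTP.

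Markers of some other liver cells differed between breeds too. For scale, 26% of all brightest probes passed in CR minus LW and 17.4% in F1 minus LW. Of 7 measured macrophage genes, 6 were lower in CR and 6 in F1 than in LW, and the mean of the list was 10.98 to 11.68 among LW pigs, 10.37 to 10.84 among CR pigs and 10.30 to 11.33 among F1 pigs. Of 5 endothelial genes, 4 were lower in CR and 4 in F1, and of 8 lymphocyte genes 4 and 3. Of 6 stellate genes none passed in CR and 2 were lower in F1. Among 5 cholangiocyte genes 1 was higher in CR and none passed in F1. Of 6 hepatocyte genes 1 was higher and 1 lower in CR, and none passed in F1. The part of cell make-up in the breed differences of the members was not tested, and fewer cells of a type cannot be told apart from less RNA per cell in these bulk samples. None of the 9 marker lists held a gene that passed in HS minus TN.

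Around the members, 71 further genes of lipoprotein metabolism were looked up, and 51 had a kept probe. In HS minus TN, 1 of the 51 rose and none fell (1.96%, against 0.946% of the brightest probes of 11207 genes), and their median difference was 0.022 against -0.00322. APOF, an inhibitor of lipid transfer between lipoproteins, rose by 0.32 (adjusted p = 0.0356) and passed at all 3 of its probes. None of 11 assembly and secretion partners, 4 plasma enzymes and inhibitors, 11 receptors and transporters and 14 regulators passed.

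In CR minus LW, 17 of the 51 passed, 4 higher and 13 lower in CR (33.3%, against 26% of all brightest probes). Among 11 other apolipoproteins 5 were lower: PON1, an esterase carried on high density lipoprotein (-0.52), APOO (-0.23), SAA1 (-1.43), SAA2 (-1.29) and SAA3 (-1.31). The SAA genes are near-identical acute phase copies, so their probes may share transcripts and their values are uncertain. Of 11 assembly and secretion partners, PLTP (phospholipid transfer protein) was lower with a difference of -0.93 (adjusted p = 3.61e-08) and SEC24D, a coat protein of export vesicles, with -0.44, while PRAP1 was higher with 0.24. Of 4 plasma enzymes and inhibitors, LIPC (hepatic lipase) was lower with -0.59. Of 11 receptors and transporters 4 were lower, VLDLR (-0.45), LSR (-0.38), ABCG8 (-0.25) and STAB1 (-0.22). Of 14 regulators, SREBF1 (0.74), MLXIPL (0.58) and HNF4A (0.36) were higher and NR2F2 (-0.42) was lower at the brightest probe. Not all their probes passed: 2 of 4 for SREBF1, 2 of 6 for HNF4A and 1 of 3 for NR2F2. SREBF1 and MLXIPL encode transcription factors of lipid synthesis.

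In F1 minus LW, 8 of the 51 passed, 2 higher and 6 lower in F1 (15.7%, against 17.4% of all brightest probes). MLXIPL (0.41) and NR5A2 (0.23) were higher. PON1 (-0.64), LIPC (-0.44), PLTP (-0.30), ABCG8 (-0.30), NR2F2 (-0.29) and LSR (-0.28) were lower, NR2F2 at 1 of 3 probes. Between F1 and CR, PLTP was higher in F1 with a difference of 0.62 and SEC24C was lower with -0.27, and SEC24C was also below the mean of the parental breeds with -0.22. Only 1 of 4 SEC24C probes passed in each of these, and 2 of 4 PLTP probes in F1 minus CR.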

How the data were processed

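The authors deposited, for every array, the spot intensity values of the scanner (Agilent Feature Extraction 10.10.1.1 in the submitters' processing notes), not normalised between arrays, and a log2 table of 42051 probes that their methods call quantile normalised. That table had been centred per probe and is used as an alternative. From the scanner tables, median spot intensity was log2 transformed and quantile normalised, 107 non-uniform spots were set missing, and probes well above background on at least 6 arrays were kept. Each probe was named from its accession, gene number, symbol or description. limma 3.58.1 (R 4.3.3) fitted breed and temperature over all arrays, and a 6-group model gave the interaction, with Benjamini-Hochberg adjustment over 44796 probes (threshold 0.05). The study's random effects of pen, slaughter day and parents are not in the labels. Correlations used 100000 permutations (scipy 1.17.1). The 36 arrays lay on 5 slides, with TN and HS but not breeds equal in number on each, and their number limits the precision. Differences within slides are of raw means, not adjusted for breed or temperature. All 10 members, the brightest probe of each, every probe that passed, and pathway genes whose brightest probe passed are named. The members and lists were chosen with earlier results of these data known. One gene of the pathway lists is not reported here and is left out of their counts. Values within slides, and the correlations without slide 4 or with other APOE probes, were added after seeing the data. Replicate numbers only name pigs. Scripts were tested on simulated data.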

Additional observations from a re-analysis of the deposited data

Results flagged for a closer look

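Within the 6 groups of 6 pigs, 60 checks of the brightest member probes found 5 pigs far from the rest of their group, where chance gives about 3. The gap to the nearest pig was 0.808 of the group's range for APOB in LW TN replicate 2 (15.97 against 16.17), 0.736 for APOM in LW TN replicate 6 (14.46 against 15.01), 0.729 for APOE in F1 TN replicate 1 (18.60 against 18.46), 0.682 for APOA1 in LW HS replicate 6 (18.67 against 18.75) and 0.64 for APOA5 in LW TN replicate 5 (15.73 against 15.31). The last of these pigs is 1 of the 4 TN pigs of slide 4, and LW TN replicate 6 is 1 of the 5 pigs set apart on the first component.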

How the results depend on the processing

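In HS minus TN the count of member probes passing, 1, was 0 without a filter on dim probes, without a breed term, without the 5 pigs set apart and without slide 1, 2, 3 or 4. It was 2 with the processed signal and with slide as a fixed block, and 0 to 5 without single pigs. The MTTP call was lost without LW TN replicates 2 or 5, LW HS 1, 2, 4 or 6, CR TN 3, 4, 5 or 6, CR HS 1, 3, 4 or 5, F1 TN 1, 3, 4 or 6, or F1 HS 2 or 3. APOA2 turned positive without slide 2 (0.0245) and slide 5 (0.0506) and ran from -0.0342 to 0.0078 without single pigs, and APOE turned to -0.0063 with the processed signal.

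CR minus LW fell from 8 to 5 probes without slide 4. F1 minus LW fell from 11 to 4 without slide 3 and without slide 4. F1 minus CR fell from 2 to 1 with the authors' table and to 0 with the processed signal and without slide 2 or 3. F1 minus mid-parent, 2, was 1 with the processed signal, 4 with array weights, 5 without the 5 pigs, 4 without slide 1, 1 without slide 2, 0 without slide 3, and 2 to 4 without single pigs. With 1 mean value per gene, 4 genes passed in CR minus LW and 5 in F1 minus LW, against 2 and 2 by the brightest probe. Of the 45 correlations 2 passed, against 1 with slide means removed and 0 without slide 4, the latter chosen after seeing the data. Over 1693 refits of single probes, 1577 kept their direction and side of the threshold, 106 were lost, 1 was gained and 9 reversed. The interaction gave 0 in all 9 alternatives. The causes were not tested. No paired analysis was possible because replicate numbers only name pigs.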
